A study of Schmidtea mediterranea with 6 samples.

Results

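Among the poly(A) sites measured in 3 sorted cell populations of the planarian flatworm Schmidtea mediterranea, 152 sites gave nearly the same signal in stem cells, progenitor cells and differentiated cells. They were picked by measured values: the probe of a site had to be well above background on all 6 arrays, and the highest and lowest of the 3 population means could differ by at most 0.6 on the log2 scale (1.52-fold). Of 5054 sites on the array, 888 were well above background on all 6 arrays, and the 152 steady sites were 17.1% of these and 3.01% of all sites. The other 4166 sites could not enter, whatever their profile. Since the level in each population chose the sites, their flatness is a description and carries no test.

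All worms were of the sexual strain, and the labels name no treatment of the RNA. The 3 populations are gates of a flow cytometry sort: X1 is labelled stem cells, X2 progenitor cells and Xins differentiated cells. Each gate was measured on 2 one-colour arrays, and the 6 arrays lay on 1 slide. Nothing in the labels tells if both samples of a gate go back to different animals or to different sorts. SDs and p-values here hence reflect the spread between samples alone, and this spread may be technical. Fewer cells of a type and less RNA per cell cannot be told apart in such samples. The array files pair no transcript model with a gene name, so neither the gates nor the sites could be set against marker genes, and sites are named below by transcript model and contig as the files give them.

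Messenger RNAs end where the cleavage machinery cuts the transcript and adds a poly(A) tail, usually a short distance after a signal hexamer, AATAAA in its common form and ATTAAA in its most frequent variant. A transcript whose level is alike in stem cells and their descendants is the kind sought as a reference for normalising expression, and genes of basic cell upkeep are the usual candidates. Neoblasts, the planarian stem cells, divide in the adult worm and replace all its tissues. The X1 gate holds dividing cells with replicated DNA, and Xins is named for cells insensitive to irradiation.

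The sequences below are the last 30 bases of the probe at sites that stand for the main kinds of steady site, 5′ to 3′, with AATAAA or ATTAAA in capitals where it starts 10 to 35 nt from the 3′ end of the probe. The first 4 are the brightest steady sites, the next 4 those that varied least over the 6 arrays, then come the faintest, the brightest narrow sites with each hexamer and the site entered through most transcript models.
mk4.000180.11.01: gggaagtatggttgcaaagctgtaacttaa
mk4.015738.02.01: agagactgccgggggcatatgtatgctggt
OX_Smed_1.0.00662: ccagtgccatgaatgtcaatgtgaagaaat
dd_smedV4_9377_0_2: gagaatctgaacttcaaccccatctgacgc
dd_smedV4_5665_0_1: atattgtaaaatttatctatttattgattt
mk4.001320.03.01: aaatcaacgttgacttagtttactattaat
dd_smedV4_41526_0_1: aaatgaaaacggaacgatatgttgcaaact
OX_Smed_1.0.16295: ttgacaaaaagtattttatatcgactttat
mk4.001786.00.01: ttgcattAATAAAgaaactcttataatcaa
OX_Smed_1.0.16885: tggtgAATAAAttgatttttgtcttttctt
mk4.003491.01.01: actcgataATTAAAagtttaacgacgtgtt
OX_Smed_1.0.17416: AATAAAtgcttgctattgtttgattttttc
In mk4.001320.03.01 and in dd_smedV4_41526_0_1 AATAAA starts 34 nt from the 3′ end, just ahead of the bases shown. None of the 4 brightest probes holds either hexamer in the window.

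Signals are given as log2 intensity minus the array's own 75th percentile, taken over 1914 probes that were well above background on each of the 6 arrays. Steady sites spanned nearly the whole scale of detected signal, with means over the 6 arrays from -5.22 to 7.90 and a median of -2.06. The other 736 detected sites had a median of -1.72 and a highest mean of 7.71. Steady sites made up a larger share at both ends of the scale than in between. Of 89 sites with a mean of -4 or lower, 25.8% were steady, against 11.2% of 160 sites between -3 and -2 and 10.1% of 99 sites between 2 and 7. Above 7, 12 of 29 sites (41.4%) were steady. None of the steady sites had a mean between 4.09 and 7.24.

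**Figure D1:**
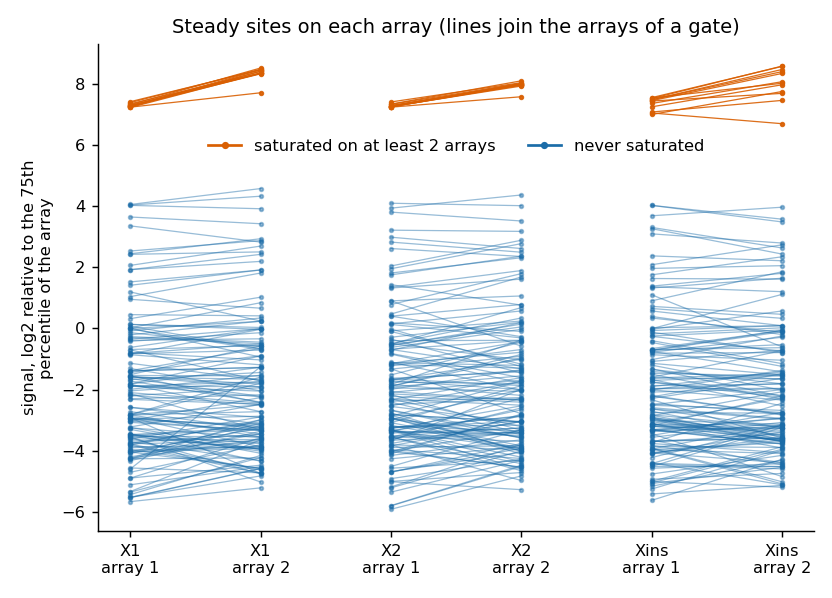
Signal of each of the 152 steady sites on the 6 arrays (vertical axis, log2 intensity relative to the 75th percentile of the array). Each line joins the 2 arrays of a gate for 1 site; the 12 sites saturated on at least 2 arrays lie at 6.69 or above, apart from the 140 that were never saturated.

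The 12 brightest steady sites were saturated, that is, at the ceiling of the scanner. Of these, 5 were saturated on all 6 arrays, 1 on 5 arrays, 5 on 4 arrays and 1 on 2 arrays. Both arrays of X1 and both of X2 were saturated at 11 of the 12 sites, and both arrays of Xins at 5. Of 25 detected sites at least as bright as the dimmest of these 12, the 13 others were saturated too and had a median range of 1.11. Among the other 736 detected sites, 23 were saturated on at least 1 array and 0 on all 6. A saturated spot gives only a lower bound of the signal. The processed signal of the 5 sites saturated throughout lay between 59287 and 70141 on all arrays. The values subtracted from them, the 75th percentiles of the arrays, had gate means of 8.13 in X1, 8.35 in X2 and 8.0 in Xins (log2 processed signal). These gate means spanned 0.35, and the ranges of the 5 sites were 0.29 to 0.41. For these 5 sites, a difference between gates could not be seen at this scanner setting. A difference between X1 and X2 could not be seen at any of the 11 sites saturated on both arrays of each.

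The site of mk4.000180.11.01 (Contig180, minus strand, 51800 to 51813), the brightest of all steady sites, had signals of 7.38 and 8.47 in X1, 7.33 and 8.09 in X2, and 7.54 and 8.56 in Xins. Array 2 read higher than array 1 in each gate, by more than the gate means differed among each other. The subtracted 75th percentiles (log2 processed signal) were lower on array 2. They were 8.68 and 7.58 in X1, 8.7 and 8.0 in X2, and 8.48 and 7.53 in Xins. With spots at the ceiling on every array, array gaps and SDs at such sites do not measure a spread of the RNA. The 3 next brightest sites behaved alike. The site of mk4.015738.02.01 (Contig15738, minus strand, 101 to 163) had gate means of 7.85 ± 0.72, 7.63 ± 0.49 and 8.04 ± 0.75 in X1, X2 and Xins (SD, n = 2 arrays). The sites of OX_Smed_1.0.00662 (Contig3868, plus strand, 37477 to 37502) and dd_smedV4_9377_0_2 (Contig1558, minus strand, 14573 to 14620) were also saturated on all 6 arrays, with means over the arrays of 7.80 and 7.78. Probes of the saturated steady sites were rich in G and C, with a median of 43.1% against 25% for the 140 others. Over all sites of the array the median was 21.6%. Of the 12, 10 lay at sites spread over more than 15 nt, and 10 had neither hexamer in the window. The 13 other sites as bright were similar in width and hexamers, with 12 spread and 9 with neither hexamer. Their median G and C content was 35%, below that of the saturated steady sites and above that of all sites. None of this is read as a trait of steady sites.

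**Figure D2:**
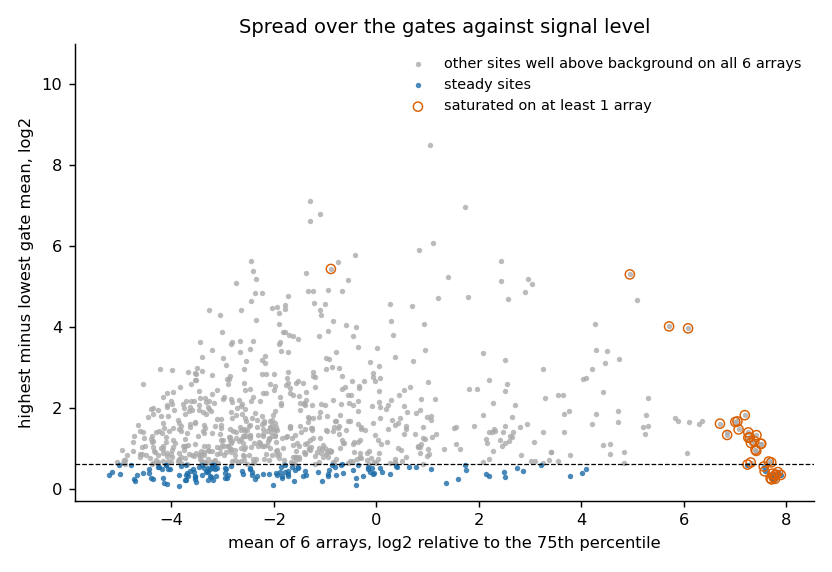
Difference between the highest and the lowest gate mean (vertical axis, log2) against the mean of the 6 arrays (horizontal axis, log2 intensity relative to the 75th percentile) for the 888 detected sites. Steady sites lie at or under the dashed line at 0.6, and circles mark sites saturated on at least 1 array, among them the 12 steady sites with means from 7.24 to 7.90 at the right end.

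The steadiest site by single arrays was that of dd_smedV4_5665_0_1 (Contig102, plus strand, 135271 to 135287), with -3.77 and -3.68 in X1, -3.89 and -3.83 in X2, and -3.68 and -3.59 in Xins. All 6 arrays fell within 0.30, although the signal was dim. The site of mk4.001320.03.01 (Contig1320, plus strand, 80283 to 80316) read -1.54 and -1.55 in X1, -1.92 and -1.55 in X2, and -1.62 and -1.49 in Xins. Only array 1 of X2 stood off, and the 6 arrays spanned 0.44. The site of dd_smedV4_41526_0_1 (Contig11071, plus strand, 6267 to 6312) spanned 0.47 and that of OX_Smed_1.0.16295 (Contig1443, minus strand, 34718 to 34788) 0.49 over the arrays. All 4 were sites with spread-out cleavage positions. In all, 12 steady sites kept their 6 arrays within 0.6, and 71 kept them within 1. The median span over single arrays was 1.02, against 0.40 over gate means.

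At the faint end, the site of mk4.001786.00.01 (Contig1786, minus strand, 1739) read -5.66 and -5.21 in X1, -5.01 and -5.27 in X2, and -5.00 and -5.19 in Xins. The X2 arrays overlapped with those of both other gates, while both X1 arrays were just below both Xins arrays. The site of OX_Smed_1.0.06182 (Contig4368, minus strand, 35049) read -5.52 and -4.82, -5.91 and -4.82, and -5.62 and -4.28 in the same order. Here array 2 was higher than array 1 in each gate and the 6 arrays spanned 1.63, while the gate means spanned 0.42. The dimmest signal marked well above background was -6.44 to -6.22 on the 3 arrays numbered 1 and -5.57 to -5.27 on those numbered 2, so these sites lay near the limit of detection on the latter.

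AATAAA was in the window of 38 steady probes (25%) and of 34.1% of the other detected ones, and the gap lay in the narrow sites. Of the 152, 83 were spread over more than 15 nt (54.6%, against 52.4% of the other detected sites) and 69 were narrow. Among the narrow sites, 15 had AATAAA (21.7%), 3 had ATTAAA without it (4.35%) and 51 had neither (73.9%). Of the 350 narrow sites among the other detected ones, 40.3% had AATAAA, 4.29% ATTAAA and 55.4% neither, and over all 4099 narrow sites of the array the shares were 45.7%, 8.27% and 46.0%. Without saturated probes the share with AATAAA was 22.4% of 67 narrow steady sites and 40.5% of 348 others. It was 20.6% against 30.6% for sites with a mean of -3 or lower, and 24.2% against 45.1% for brighter ones. At spread sites the shares were alike, with AATAAA at 23 of 83 steady sites (27.7%) and at 28.5% of the 386 others. The hexamers were searched on the probe strand only, as a description of the probe: a probe need not reach the cut itself, and the difference in shares was not tested.

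**Figure D3:**
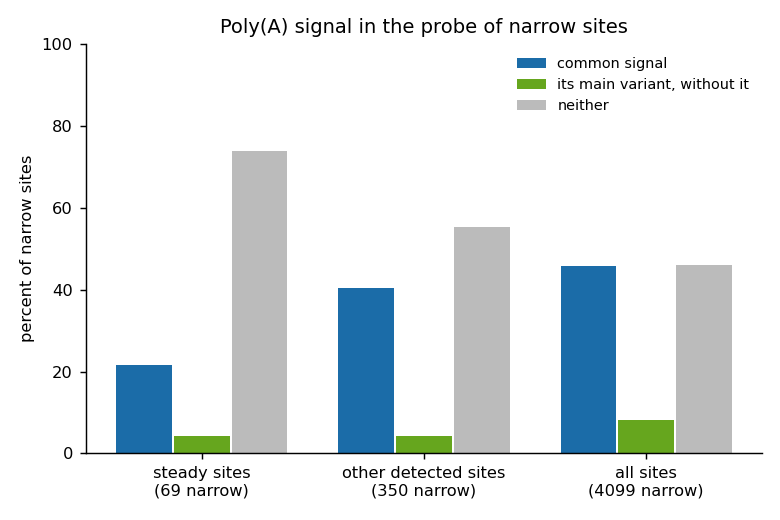
Share of narrow sites (at most 15 nt from start to end) whose probe holds the common poly(A) signal hexamer, its main variant without it, or neither, in percent. Bars are shown for the 69 narrow steady sites, the 350 narrow sites among the other detected ones and the 4099 narrow sites of the whole array; the common signal stands at 21.7%, 40.3% and 45.7%.

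The brightest narrow steady site with AATAAA was that of OX_Smed_1.0.16885 (Contig71, minus strand, 29988 to 29994), where the hexamer starts 25 nt from the 3′ end. It read 1.92 and 2.42 in X1, 1.95 and 2.77 in X2, and 1.75 and 2.34 in Xins, so that all 3 gates overlapped. The brightest with ATTAAA was that of mk4.003491.01.01 (Contig3491, minus strand, 23599 to 23600), much dimmer. Its gate means were -3.60 ± 0.70, -3.67 ± 0.49 and -3.14 ± 0.28, from X1 to Xins. Over all steady sites with a hexamer, its first base lay a median of 28 nt from the 3′ end, against 25 nt at the other detected sites. In the other traits of the design both sets were close: the median width was 20 nt against 19 nt, the median G and C content of the probe 26.7% in both sets, and the median number of transcript models 2 in both. The site entered through most models was that of OX_Smed_1.0.17416 (Contig2192, plus strand, 56950 to 56965), with 18 models and AATAAA 30 nt from the 3′ end. Its gate means were -1.03 ± 0.23, -0.90 ± 0.79 and -0.50 ± 0.34 in X1, X2 and Xins. The site of OX_Smed_1.0.12762 (Contig1202, plus strand, 95030 to 95044), with 7 models, stood at -0.37 ± 0.32, -0.76 ± 0.38 and -0.95 ± 0.13.

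The limit of 0.6 was close to the spread between replicates. The SD between the 2 arrays of a gate, pooled over the gates, had a median of 0.43 at steady sites and 0.42 at the other detected sites, and was larger than the range of the gate means at 79 of the 152. It was above 0.6 at 39. Replicates were thus about as far apart at steady sites as at the others. The SD includes any shift that same-numbered arrays share, and such a shift moves all 3 gate means alike. The largest array difference was at the site of OX_Smed_1.0.18305 (Contig2144, minus strand, 1815), whose 45-nt probe holds 2.22% G and C: -4.59 and -1.25 in X1, -3.68 and -1.99 in X2, and -3.73 and -2.45 in Xins. Array 2 was higher in every gate, by up to 3.34, and the gate means still fell within 0.26. At the site of dd_smedV4_1061_0_6 (Contig4856, minus strand, 44792 to 44801) the arrays numbered 1 were higher instead, by 1.83 in X1. Both are steady by their gate means and not by their arrays.

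At the limit itself, the members just inside were the sites of dd_smedV4_3006_0_1 (Contig1010, plus strand, 91072) and OX_Smed_1.0.15066 (Contig9683, minus strand, 8359 to 8446), and those just outside were the sites of mk4.000604.05.01 (Contig604, minus strand, 67822 to 67938) and OX_Smed_1.0.18271 (Contig6485, minus strand, 13980 to 14034). All 4 ranges round to 0.60. The site of dd_smedV4_3006_0_1 read -0.39 and -0.34 in X1, -1.15 and -0.78 in X2, and -0.69 and -0.63 in Xins, so its gates did not overlap. The site of OX_Smed_1.0.18271, left out, read -0.89 and -1.36, -0.51 and -1.36, and -1.15 and -1.92, and its gates did. The saturated site of OX_Smed_1.0.15066 had gate means of 7.46 ± 0.34, 7.40 ± 0.24 and 6.87 ± 0.25 in X1, X2 and Xins, and the site of mk4.000604.05.01, left out, 1.24 ± 0.39, 0.87 ± 0.45 and 0.64 ± 0.33.

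Taken alone, the arrays of replicate number 1 and those of number 2 each gave a range over the gates, a split chosen after seeing the data. On the 3 arrays numbered 1, 118 of the 152 steady sites stayed within 0.6, on those numbered 2, 103 did, and 74 did on both. These arrays are those that chose the sites, so the counts describe the spread within the choice and support nothing beyond it. Replicate numbers name arrays here, and same-numbered arrays are not known to share a sort.

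In limma's F test over the 3 gates, 0 of the 152 steady sites passed an adjusted p of 0.05 and 0 an unadjusted p of 0.05, while 42.5% of the 1349 sites tested passed the former. In the pairwise comparisons 0 steady sites passed as well, where 49.3% of all sites tested passed for Xins against X1. The shares were 6.23% when X2 was set against X1 and 25.7% when Xins was set against X2. In this fit the choice of sites fixed the pairwise counts at 0. Gate means of steady sites differed by at most 0.6, and the 95% intervals reached at least 0.82 to either side of the difference. The F test drew on the same limited differences. With a replicate term in limma, 1 steady site passed an adjusted p of 0.05 for Xins against X1, where 932 of 1349 sites did. None of the steady sites did for X2 against X1 or for Xins against X2, where 388 and 721 of all sites tested did. Nothing is read from any of these counts. The widths of the intervals come from the fit without a replicate term, so they include any shift that same-numbered arrays share, and they were much narrower with such a term. For Xins against X1 the 95% interval reached a median of 1.06 to either side of the difference (2.09-fold). It stayed within 1 of no difference at 9 of the 152 sites. The same was true of 9 sites when X2 was set against X1 and of 13 when Xins was set against X2. In all 3 comparisons together this was so at 0 sites.

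What slope remained was small. The median difference over the steady sites was -0.10 when Xins was set against X1, 0.00 when X2 was set against X1 and -0.11 when Xins was set against X2, and over all tested sites -0.17, -0.02 and -0.27. Xins was the lowest gate at 70 steady sites, X1 at 44 and X2 at 38. With the authors' value table the medians of the same sites were 0.44, 0.15 and 0.26. Those of all tested sites moved along, to 0.32, 0.10 and 0.06. Under every other scaling the medians of the steady sites stayed below 0 for Xins against X1, from -0.21 to -0.07. For Xins against X2 they stayed below 0 as well, from -0.75 to -0.02. Among the scalings, the sign of these medians thus turned only with the authors' table. Leaving out array 2 of X1 also turned it for Xins against X1, to 0.05. That median was 0.00 without array 1 of Xins, and the one for Xins against X2 was 0.00 without array 2 of X2. The sign is not read as a difference between gates.

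At 49 steady sites the array held a second probe sequence, and at 36 of these the second was also well above background on all 6 arrays. Its gate means were not used in choosing the sites, but its mean level was, since the brightest probe stood for a site. Those gate means stayed within 0.6 at 24 of the 36 (66.7%), where 17.6% of all 170 such second sequences did. At the other detected sites the share was 6 of 134 (4.48%). The 2 probes of a site were read on the same arrays and overlap in sequence at 32 of the 36, by 13 nt or more and a median of 52.5 nt. They are no independent measurement, and nothing is read from the contrast of these shares. At 4 steady sites no overlap of at least 12 nt was found, and the second sequences there had ranges of 0.12, 0.23, 0.28 and 1.03. Separate probes with the same sequence as the chosen probe were present at 78 steady sites, and 122 of these 153 copies (79.7%) stayed within 0.6, with a highest range of 0.95. At the other detected sites 19 of 648 copies did (2.93%). Such copies read the same target on the same arrays, and the choice of sites split them at 0.6, so nothing is read from these shares.

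**Figure D4:**
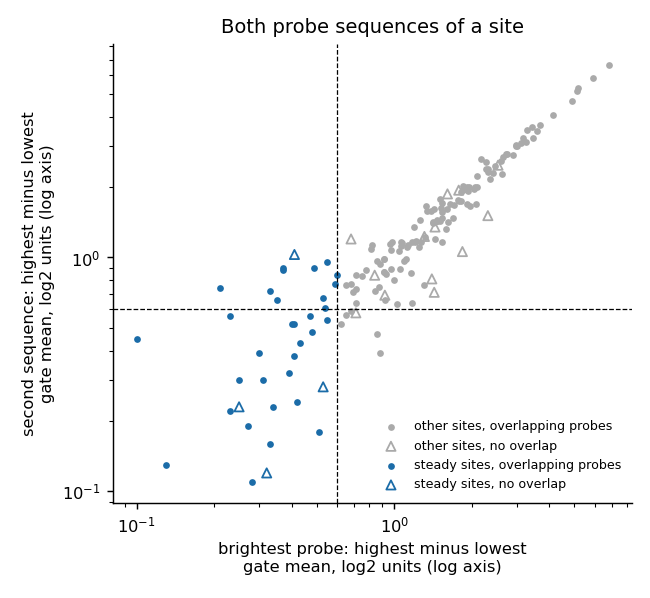
Highest minus lowest gate mean of the brightest probe of a site (horizontal axis) against that of its second sequence (vertical axis), both in log2 units on log axes, for 170 sites. Dashed lines mark 0.6; of the 36 steady sites, left of the vertical line, 24 lie under the horizontal one, and triangles mark probes that do not overlap.

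The second sequence that varied least was at the site of OX_Smed_1.0.13706 (Contig107, plus strand, 84566 to 84622). Its brighter probe read 2.68 ± 0.35, 2.46 ± 0.60 and 2.41 ± 0.47 in X1, X2 and Xins. The second, of dd_smedV4_1776_0_1, read -3.25 ± 0.44, -3.35 ± 0.62 and -3.34 ± 0.22, about as flat at a far lower signal. The next was at the site of OX_Smed_1.0.15935 (Contig6384, plus strand, 33722 to 33789), where the second sequence, with no overlap, kept within 0.12. The second sequences that varied most were at the sites of mk4.007319.00.01 (Contig7319, minus strand, 16631 to 16732) and dd_smedV4_108_0_1 (Contig652, minus strand, 35552 to 35601). At the former, the brighter probe went from -0.36 ± 0.13 in X1 to 0.05 ± 0.05 in Xins, and the second from -1.05 ± 0.12 to -0.02 ± 0.10, without overlap between these gates in either. At the latter, both probes were saturated on 4 arrays, and the second was at 7.88 ± 0.85 in X1 and 6.92 ± 0.44 in Xins, a range of 0.96.

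Some steady sites repeat a sequence held elsewhere on the array. The 152 sites have 149 distinct probe sequences, and 27 of them share a run of at least 20 nt with the probe of another detected site. In 13 such pairs both sites were steady, 3 of them with identical probes. The identical probes of OX_Smed_1.0.11618 (Contig322, plus strand, 130542) and OX_Smed_1.0.11959 (Contig49, plus strand, 17781) had means of -0.17 and -0.16 and ranges of 0.53 and 0.50. Reading the same target again gave nearly the same values. In 5 pairs, 2 of them identical, the other site was not steady, with ranges of 0.63 to 0.71. Counts of steady sites therefore hold repeats of the same target. A set of 3 dim steady sites on 3 contigs, with ranges of 0.30, 0.18 and 0.21, overlaps by long runs, and the stretch common to the ends of their probes is in capitals here.
dd_smedV4_3742_0_1: tacatcgGATCTTAGTTTTCTGCGGATCAG
dd_smedV4_24488_1_1: catcgGATCTTAGTTTTCTGCGGATCAGag
mk4.013873.00.01: GATCTTAGTTTTCTGCGGATCAGagataat
Among the saturated sites, the probe of dd_smedV4_9377_0_2 ends in the 28 bases with which that of mk4.009083.00.01 (Contig9083, minus strand, 12888 to 12935) begins, again in capitals. The lines give the end of the former and the start of the latter.
dd_smedV4_9377_0_2: gaGAATCTGAACTTCAACCCCATCTGACGC
mk4.009083.00.01: GAATCTGAACTTCAACCCCATCTGACGCga
Their means over the arrays were 7.78 and 7.75. Whether the contigs are separate loci or pieces of the same one is not stated by any source used here.

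A second detected site lay within 5000 nt on the same strand at 2 steady sites. Neither neighbour was steady, and neither were 82.9% of all detected sites, so nothing is read from this count. The steady site of OX_Smed_1.0.20991 (Contig430, minus strand, 64017 to 64029) read 1.41 and 1.91 in X1, 1.75 and 2.36 in X2, and 1.32 and 1.64 in Xins. The site of mk4.000430.07.01, 816 nt further downstream on that strand (63126 to 63201), read 5.43 and 5.94, 3.77 and 4.69, and 2.35 and 3.08. At the steady site X1 overlapped with both other gates and X2 lay above Xins, while at its neighbour the 3 gates did not overlap and fell in the order X1, X2, Xins. Its log2 difference for Xins against X1 was -2.97 (SE 0.49, adjusted p = 0.00383 in limma). The ends of their probes are shown with the hexamer of the neighbour in capitals.
OX_Smed_1.0.20991: aatacaatgattctttaattttaattgcat
mk4.000430.07.01: ctgtccaaattgtaggggaaAATAAAtgta
The files give the 2 sites to different transcript models, and whether they belong to 1 gene is not stated. At the steady site of dd_smedV4_99_0_1 (Contig1291, minus strand, 47709 to 47767), saturated on 4 arrays, the range cannot be set against that of another site. Its neighbour dd_smedV4_9808_0_1, 1301 nt downstream, had gate means of -1.86 ± 0.55, -1.88 ± 0.49 and -3.20 ± 0.70, with an adjusted p of 0.0710 for Xins against X1 in limma.

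Which sites count as steady depends on how arrays are put on 1 scale. With arrays scaled by 7 spike-in control probes, 35 of the 152 stayed within 0.6. Over all 152, the median difference became 0.61 when X2 was set against X1 and -0.75 when Xins was set against X2. Those of all tested sites became 0.59 and -0.92. The values of the authors' own table kept 91 within 0.6 and quantile normalization kept 116. Taking the percentile over all probes kept 139, and subtracting the median in place of the percentile kept 147. With 1 array left out, 93 to 112 stayed. Over the 7 settings without spike-in scaling, the one used here included, 61 sites stayed within 0.6 in each, and 14 of these did so also with each array left out in turn.

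**Figure D5:**
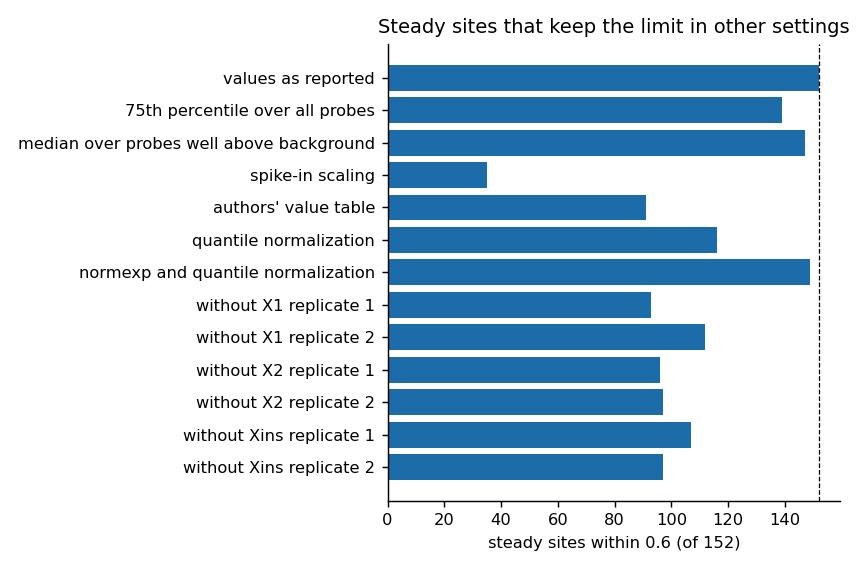
Number of the 152 steady sites whose highest and lowest gate means stay within 0.6 (horizontal axis) under other scalings and with 1 array left out. The dashed line marks 152; spike-in scaling leaves 35 and leaving out an array 93 to 112.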

How the data were processed

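RNA of 6 sorted samples was hybridised to 1-colour Agilent arrays, and per the labels' protocols it was selected with oligo-dT, amplified linearly and labelled with Cy3. Intensities are the processed signals that Feature Extraction 11.5.1.1 wrote, per the file headers, already background-subtracted; 55.5% of non-control spots carry a surrogate value. The authors' deposited value table, which the values show to be on a natural log scale with slopes of 0.694 to 0.719 against log2 intensity, served as an alternative; its column medians run from 0.981 to 1.31, and its centring is not stated. The submitters' processing notes name limma. No source used here states the genome build, and coordinates are those in the array files.

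Spots of a probe were averaged as log2, 11 outlier-marked spots were left out, and each array's 75th percentile was subtracted. The brightest probe stood for a site. The fit took in 1349 sites, those where both arrays of some gate were well above background, and was made with limma 3.58.1 (R 4.3.3; lmFit, eBayes, Benjamini-Hochberg, adjusted p under 0.05). Python 3.11.15, numpy 2.4.6, pandas 2.3.3 and matplotlib 3.10.9 were used otherwise. With 2 arrays a gate, their number limits the precision. All arrays share 1 slide and 1 scan day. Both Xins arrays lay in the same slide row.

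Members and lists were chosen with earlier results of these data known. Sites were named by rule: the 4 brightest, the 4 with the smallest span over arrays, the 2 faintest, 2 on either side of the limit, the brightest of each site class, the 2 with most models, the 2 smallest and 2 largest second sequences, the neighbours within 5000 nt, and the 2 with the largest array difference. Pairs sharing sequence were chosen after their values were seen. Alternatives covered scaling, background correction, filters, probe choice, the limit, blocks and leaving out each array.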

Additional observations from a re-analysis of the deposited data

How the results depend on the processing

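The number of steady sites, 152, went to 59 with spike-in scaling and to 442 with normexp and quantile normalization, and to 75 and 250 with limits of 0.4 and 0.8. With 1 array left out it was 120 to 155, with 93 to 112 sites shared. The sites called by the F test (573) were 324 with spike-in scaling, 948 with the replicate block, 204 with no filter on dim probes, 352 among sites well above background on all 6 arrays and 1241 over all probes; leaving out an array gave 397 to 496. In the same order of settings, X2 against X1 (84) gave 45, 388, 17, 50 and 183, and Xins against X2 (347) gave 139, 721, 62, 218 and 791. Xins against X1 (665) gave 381 with spike-in scaling, 932 with the replicate block, 254 with no filter, 415 among sites above background on all 6 arrays and 1411 over all probes. Leaving out an array gave 443 to 640 for Xins against X1, the lowest without X1 replicate 1, and 8 to 95 for X2 against X1, with 23 and 21 without X1 replicate 1 and 2, and 14 and 8 without X2 replicate 1 and 2. For Xins against X2 it gave 143 to 303, with 150 and 143 without X2 replicate 1 and 2, and 212 and 202 without Xins replicate 1 and 2. Of the steady sites, 0 were called except with normexp and with the replicate block. With normexp, 1 steady site was among the 398 sites called by the F test, of 1349 tested. Xins against X1 called 2 among 488, and Xins against X2 called 1 among 269. With the replicate block, Xins against X1 called 1 steady site among 932. Median differences of the steady sites moved to 0.44 for Xins against X1 in the authors' value table, and with spike-in scaling to 0.61 (X2 against X1) and -0.75 (Xins against X2). Fewer or more sites were tested under the filter settings and over all probes; for the other changes the cause was not tested. Deviations of same-numbered arrays correlated over 888 sites, at 0.728 for X1 and X2, 0.544 for X1 and Xins and 0.542 for X2 and Xins. Same-numbered arrays are not known to share a sort, and they were not taken as pairs in the fit without the replicate block. With the replicate block, added after seeing the data for the intervals, the 95% interval of the steady sites reached a median of 0.584 to either side in place of 1.06. The interval then stayed within 1 of no difference at 105 sites for Xins against X1, 113 when X2 was set against X1 and 107 when Xins was set against X2, and at 69 in all 3. Depth is limited by saturation at the bright end and by background at the dim end.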

Other observations

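Combining the settings, an alternative chosen after seeing the data, left 14 steady sites within 0.6 under the 7 settings without spike-in scaling and with each array left out in turn. None of the 14 was saturated, and 9 were spread over more than 15 nt. Both counts include the sites of OX_Smed_1.0.15935 and dd_smedV4_8658_0_1, whose probes are identical, so they hold a repeat of the same target. With spike-in scaling as well, 3 remained. The site of mk4.000008.00.01 was the brightest of them, at 4.02 and 3.91 in X1, 3.80 and 3.51 in X2, and 4.02 and 3.48 in Xins. The site of OX_Smed_1.0.03829 read 1.52 and 1.91, 1.32 and 1.61, and 1.63 and 1.61 in the same order. The third was the dim site of dd_smedV4_41526_0_1. These sites were picked by their values, and their flatness carries no test.

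The brightest steady site that was never saturated, that of mk4.000049.04.01 (Contig49, plus strand, 88292 to 88346), was also singled out after its values were seen. It read 4.05 and 4.57 in X1, 3.93 and 4.36 in X2, and 3.68 and 3.96 in Xins. Its second sequence, at a mean of -0.02, had a range of 0.90 over the gates. With normexp and quantile normalization this site was called for Xins against X1 in limma, at a log2 difference of -0.48 and an adjusted p that rounds to 0.05, so it is steady by the rule and not under each setting.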
